A study of Mus musculus with 16 samples.

Results

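The Slc25 mitochondrial carriers are the family described here, across left ventricles of mice from a model of non-ischemic heart failure. A gene was a member if the platform annotation gave it a symbol of Slc25a followed by a number. The series held 57 such probes, and the probe with the highest mean over all 16 arrays stood for each gene, which left 39 members among 16593 genes with a probe. Of these, 31 exceeded background, 7.13 on the log2 scale, on at least 4 arrays and were tested with the 9110 genes that passed the same filter. Membership rested on names alone, while the values chose the probe of each gene and the members tested. Earlier results of these data were known when the members were chosen. Slc25a4 and Slc25a37 are among the family genes not analysed here.

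Illumina BeadChips (16 arrays) measured expression in 4 groups of 4 samples from male C57BL6 mice that were 12 weeks old at assignment. The combination group received L-NAME with 1% NaCl for 5 weeks and angiotensin II (AngII) for 4 weeks, and is the heart failure group. The doses of both agents were those of the single-agent groups. The AngII group received only the peptide, which raises blood pressure, at 0.7 mg/kg/day for 4 weeks from a micro-osmotic pump under the skin. The L-NAME group drank only this nitric oxide synthase inhibitor, 0.3 mg/ml in water with 1% NaCl, for 5 weeks, and the control group received neither agent. Salt went with L-NAME in both L-NAME groups, and whether the AngII and control mice drank it is not stated in the labels. Samples are numbered 1 to 4 within a group, but no label says that each is a separate mouse, and p-values then reflect only the spread among these samples.

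Carriers of this family share a fold of repeated membrane-spanning modules and sit in the inner mitochondrial membrane, with a few members on other membranes. They exchange metabolites between the cytosol and the matrix: ADP for ATP, phosphate, the acids of the citrate cycle and of the malate-aspartate shuttle, acylcarnitines, amino acids, iron and cofactors. In heart muscle, which burns mostly fatty acids, the adenine nucleotide, phosphate and carnitine carriers are known as abundant proteins of the inner membrane.

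All 8 cardiomyocyte markers with a probe were above background on all 16 arrays, and 1 of them, Tnni3, was lower in the combination group than in control (-0.50 ± 0.12 SE on the log2 scale, limma adjusted p = 0.0221). The 3 atrial markers Myl4, Myl7 and Sln had a mean of 9.17, 8.12, 10.55 and 7.81 on the combination arrays, 6.94 to 7.73 on the AngII arrays, 7.09 to 7.68 on the L-NAME arrays and 7.39, 7.53, 7.04 and 9.78 on the control arrays. The log2 of the summed atrial level ranged over 10.45–12.62, 9.28–9.79, 9.17–9.90 and 9.47–12.18 in the same order of groups, and 1 of the 3 was above background on every array. The 4 smooth muscle markers summed to 13.56–14.12 in the combination group, 13.53–13.92 with AngII, 13.28–13.67 with L-NAME and 12.70–13.30 in control. Cnn1 was below background throughout, and Acta2 was called higher in the combination than in control (0.88 ± 0.15 SE, adjusted p = 0.00442). The 3 brown adipocyte markers summed to 11.66–12.03 in the combination group, 11.48–11.66 with AngII, 11.38–11.77 with L-NAME and 11.22–11.48 in control. Cidea was called higher in the combination than in control (0.55 ± 0.12 SE, adjusted p = 0.0164), while Ucp1 did not pass the background filter. The 4 adipocyte markers did not pass it either. The 7 fibroblast markers had a median of 0.45 in the combination against control and 0 called. Of these, 6 lay above 0 and 1 below, against 50.8% of all genes below 0. Combination array 4 stood apart from the rest: the root mean square deviation of all genes from the group mean was 0.48 on it and 0.21 to 0.32 on the other arrays. In whole tissue, fewer cells of a type and less RNA per cell cannot be told apart. Differences of called members are given with and without this array, as are the uncalled differences from control described below that turned direction or moved by over 0.1 without it, and the part of the markers in the results was not tested unless a value is given.

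In the failing ventricle most tested members, like most genes tested, did not pass the test, which does not show that they were unchanged. Against control, 2 of 31 tested members, Slc25a42 and Slc25a26, were lower in the combination group, 0 were higher and 29 did not pass, beside 5.80% of all genes called, 2.84% lower and 2.95% higher (limma, Benjamini-Hochberg adjusted p under 0.05). The median difference was -0.06 over the 31 members and 0 over all genes tested, and 18 members lay below 0, a share of 58.1% against 50.8% of all genes. The differences ran over -0.73 (Slc25a27) to 0.24 (Slc25a29) on the log2 scale, and in both of these genes 1 of the groups was below background on all its arrays. In 7 members the 4 combination arrays did not overlap the 4 control arrays, 6 lower (6.71% of all genes) and 1 higher (5.94% of all genes).

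Against the single treatments, Slc25a42 was the called member in both comparisons. It was lower in the combination group than in the AngII group (0.735% of all genes called, 0.307% lower and 0.428% higher) and lower than in the L-NAME group (1.89% of all genes called, 0.801% lower and 1.09% higher), and 30 members did not pass in each. Neither AngII alone nor L-NAME alone gave a called member (0% of all genes in both). Over all genes AngII had 139 calls without combination array 4, 138 with a trended robust variance and 178 with array weights, again with 0 members among them. At an unadjusted p under 0.05, the combination against control had 6 of 31 members, 1 higher and 5 lower (19.4%, against 21.4% of all genes). Against AngII it had 7, all lower (22.6%, against 15.5% of all genes), and against L-NAME 5, all lower (16.1%, against 16.7% of all genes). AngII against control had 4 of 31 members (12.9%, against 14.4% of all genes) and L-NAME against control 1 (3.23%, against 11.4% of all genes). The test over all 4 groups called Slc25a42 (F test, adjusted p = 0.00675, 2.39% of all genes called). The comparisons with control share its 4 arrays.

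Slc25a42 carries coenzyme A into the matrix in exchange for adenine nucleotides, which supplies the cofactor for fatty acid oxidation and the citrate cycle. Its log2 levels were 9.10, 8.87, 8.85 and 8.89 on the combination arrays. They were 9.63, 9.72, 9.65 and 10.16 on the AngII arrays and 9.87, 9.73, 9.67 and 9.85 on the L-NAME arrays. On the control arrays they were 9.67, 9.70, 9.38 and 9.25. All 4 combination arrays lay below all 12 other arrays, a pattern shared by 1.08% of all genes, while the other 3 groups overlapped each other.

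The means were 8.93 ± 0.11 in the combination group, 9.79 ± 0.25 in the AngII group, 9.78 ± 0.09 in the L-NAME group and 9.50 ± 0.22 in control (SD, n = 4 each). Slc25a42 was 1.49-fold lower in the combination than in control (-0.57 ± 0.14 SE on the log2 scale, 95% interval -0.86 to -0.28, limma adjusted p = 0.025). It was 1.82-fold lower than with AngII alone (-0.86 ± 0.14 SE, adjusted p = 0.0126) and 1.80-fold lower than with L-NAME alone (-0.85 ± 0.14 SE, adjusted p = 0.0046). The single treatments stood above control by 0.29 for AngII (adjusted p = 0.341) and 0.28 for L-NAME (adjusted p = 0.453), neither of which passed.

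The combined effect of both agents minus the sum of their single effects was -1.14 ± 0.19 (SE, 95% interval -1.55 to -0.73) for Slc25a42, which missed the threshold (adjusted p = 0.0546, 0% of all genes called). It passed in 10 of 27 alternatives, with adjusted p of 0.0123 to 0.132 over them. With the replicate number as a block it passed (adjusted p = 0.0465, beside 42 genes called), and it passed without combination array 4 (-1.13, adjusted p = 0.0358, beside 51 genes called). With the atrial markers as a covariate the adjusted p was 0.122, beside 0 genes called. Without combination array 4 the differences were -0.56 from control (adjusted p = 0.0376), -0.85 from AngII (adjusted p = 0.015) and -0.84 from L-NAME (adjusted p = 0.00703). The call against control was lost with the mean of the atrial markers as a covariate (-0.55, adjusted p = 0.0534), without combination array 3 (-0.55, adjusted p = 0.0598), and without control array 1 (-0.51, adjusted p = 0.0767) or control array 2 (-0.50, adjusted p = 0.0705). The call against AngII was also lost with that covariate (-0.82, adjusted p = 0.0836). In a fit of only the 8 arrays compared, both calls were lost (adjusted p = 0.0945 against control and 0.186 against AngII). The call against L-NAME held in all 28 alternatives tried. Within replicates 1 and 2 the difference from control was -0.70, and within replicates 3 and 4 it was -0.45. The difference from control was -0.01 within replicates 1 and 2 and 0.59 within replicates 3 and 4 for AngII, and 0.12 and 0.44 in the same pairs for L-NAME.

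**Figure D1:**
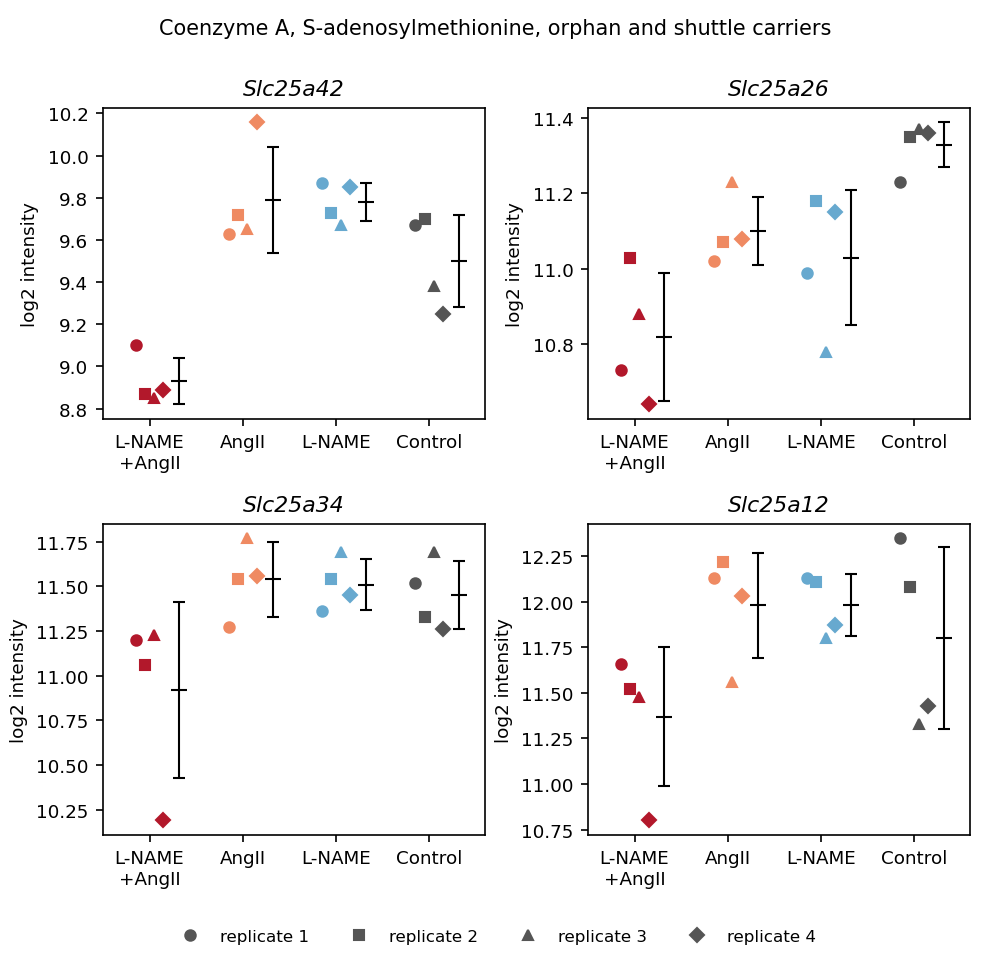
Log2 intensity of Slc25a42, Slc25a26, Slc25a34 and Slc25a12 on each of the 16 arrays, by group on the horizontal axis, with the mean and SD of 4 arrays beside the points and a marker shape for each replicate number; each panel has its own scale. For Slc25a42 the combination arrays sit at 8.85 to 9.10, below all other arrays, and for Slc25a34 and Slc25a12 combination array 4 is the lowest point at 10.19 and 10.80.

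Of 31 tested members, Slc25a42 and Slc25a34 were the 2 lower on all combination arrays than on all 12 others (1.08% of all genes). Higher on all were 0 members (1.06% of all genes). The promoters of Slc25a42 and Slc25a34 are shown. The windows come from RefSeq (GRCm38.p6), run over 250 bases before to 50 after the annotated start, and are printed 5′ to 3′ on the strand of the gene, which is the minus strand for both. Capitals mark the motifs searched on both strands: CCAAT (the box bound by NF-Y), GGGCGG (the GC box of Sp factors) and AAGGTCA (the core site of estrogen-related receptors). The NRF1 site and the direct repeat of PPAR dimers, whose letters overlap those of AAGGTCA, were searched too.
Slc25a42, chr8:70212232-70212531: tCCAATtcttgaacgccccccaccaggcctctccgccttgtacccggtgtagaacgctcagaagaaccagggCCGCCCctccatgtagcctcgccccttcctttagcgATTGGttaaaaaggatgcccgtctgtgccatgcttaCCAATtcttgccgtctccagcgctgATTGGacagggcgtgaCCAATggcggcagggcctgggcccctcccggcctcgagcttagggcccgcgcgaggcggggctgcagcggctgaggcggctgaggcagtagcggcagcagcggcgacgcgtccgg
Slc25a34, chr4:141623785-141624084: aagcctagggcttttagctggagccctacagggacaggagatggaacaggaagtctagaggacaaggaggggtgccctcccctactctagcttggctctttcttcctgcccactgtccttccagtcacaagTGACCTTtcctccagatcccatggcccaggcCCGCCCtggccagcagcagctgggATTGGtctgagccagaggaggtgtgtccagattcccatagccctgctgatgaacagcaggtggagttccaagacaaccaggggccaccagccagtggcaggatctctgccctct
The Slc25a42 window held 5 CCAAT matches and 1 GC box, and 0.271% of all 32851 windows held at least 5 CCAAT matches. The cutoff of 5 was this window's own count, so the share is no test of rarity. The Slc25a34 window held 1 CCAAT, 1 GC box and 1 AAGGTCA, and it was the 1 member window of 41 with AAGGTCA (2.44%), against 4.72% of all windows.

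Windows were found for 32 of the 39 members, and Slc25a26 had none. The Slc25a12 window was also read for these motifs, held no match and is not printed. GC boxes stood in 34 of their 41 windows (82.9%), against 35.7% of all windows, and CCAAT in 46.3% against 37.4%. The median GC content was 59.7% in the member windows and 52.7% in all windows, so base composition differed along with the motif count. The NRF1 motif stood in 2 member windows, those of Slc25a3 and Slc25a31 (4.88%, against 4.60% of all windows), and the PPAR repeat in 0 (0.0396% of all windows). These matches describe the letters of the windows, and binding was not measured.

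Slc25a26 imports S-adenosylmethionine, the methyl donor for methylation inside mitochondria. Its log2 levels were 10.73, 11.03, 10.88 and 10.64 on the combination arrays. They were 11.02, 11.07, 11.23 and 11.08 on the AngII arrays and 10.99, 11.18, 10.78 and 11.15 on the L-NAME arrays, against 11.23, 11.35, 11.37 and 11.36 on the control arrays. The arrays of all 3 treated groups lay below all 4 control arrays, narrowly for AngII array 3, and the combination arrays overlapped both single treatments.

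Slc25a26 averaged 10.82 ± 0.17 in the combination group and 11.33 ± 0.06 in control (SD, n = 4 each), a 1.42-fold lower level (-0.51 ± 0.11 SE on the log2 scale, 95% interval -0.75 to -0.27, limma adjusted p = 0.0177). The difference from control was -0.23 with AngII alone (adjusted p = 0.369) and -0.30 with L-NAME alone (adjusted p = 0.315), and neither passed. The combination differed from the AngII group by -0.28 (adjusted p = 0.249) and from the L-NAME group by -0.21 (adjusted p = 0.379). The combined effect beyond the sum of both agents was 0.02 ± 0.16 (SE, 95% interval -0.31 to 0.36). The call against control held without combination array 4 (-0.45, adjusted p = 0.03). It was lost without combination array 1 (-0.48, adjusted p = 0.0522) and in a fit of only the 8 arrays compared (-0.51, adjusted p = 0.0916).

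These 2 genes belong to the cofactor, nucleotide, NAD and glutathione carriers, of which 8 of the 9 members with a probe were tested. Against control in the combination group 2 of the 8 fell and 6 did not pass, with a median of -0.11, beside 2.84% of all genes called lower. The group was described with both called members in it. Slc25a33, a pyrimidine nucleotide carrier, had 9.93, 9.98, 10.33 and 11.49 on the combination arrays and 10.41, 10.42, 9.83 and 10.56 on the control arrays. It differed by 0.13 ± 0.32 (SE, adjusted p = 0.862), and by -0.22 without combination array 4, which held its highest value of all 16. Slc25a16, an inner membrane carrier linked to coenzyme A, differed by -0.33 with AngII against control, with no overlap between the groups (adjusted p = 0.262). Slc25a32, the flavin and folate carrier, had 8.89, 8.82, 8.66 and 8.88 on the L-NAME arrays, all below the control arrays at 8.91 to 9.08 (-0.15, adjusted p = 0.68). The peroxisomal carrier Slc25a17, the pyrimidine nucleotide carrier Slc25a36 and the glutathione carrier Slc25a39 differed from control by -0.01, -0.11 and -0.10 in the combination group, with adjusted p of 0.704 or more.

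The shuttle and carboxylate carriers gave no call in any comparison. Slc25a12, the calcium-regulated aspartate-glutamate carrier of the malate-aspartate shuttle in heart and brain, had 11.66, 11.52, 11.48 and 10.80 on the combination arrays. It had 12.13, 12.22, 11.56 and 12.03 on the AngII arrays, 12.13, 12.11, 11.80 and 11.87 on the L-NAME arrays and 12.35, 12.08, 11.33 and 11.43 on the control arrays. The combination arrays lay below all L-NAME arrays and overlapped the AngII and control arrays, and the control arrays were spread widely. The difference was -0.43 ± 0.24 SE from control (adjusted p = 0.318), -0.62 from AngII (adjusted p = 0.225) and -0.61 from L-NAME (adjusted p = 0.208). Without combination array 4 the differences were -0.24 from control (adjusted p = 0.609), -0.43 from AngII (adjusted p = 0.419) and -0.42 from L-NAME (adjusted p = 0.439).

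The paralogous aspartate-glutamate carrier Slc25a13, best known from liver, had 8.41, 8.52, 8.69 and 9.24 on the combination arrays and 8.33, 8.93, 8.77 and 8.56 on the control arrays, which overlapped (0.07 ± 0.17 SE, adjusted p = 0.862). Without combination array 4, its highest value of 16, the difference was -0.11 (adjusted p = 0.733). Slc25a11, the oxoglutarate-malate exchanger of the same shuttle, had 12.72, 12.83, 12.83 and 12.84 on the combination arrays and 12.79, 12.76, 12.74 and 12.64 on the control arrays. Its difference of 0.07 ± 0.08 (SE, 95% interval -0.10 to 0.25) was among the most tightly measured in the family, since its pooled SD was 0.07 against a median of 0.27 over the tested members. Its other probes, both above background on all 16 arrays, gave -0.07 and -0.13.

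Slc25a1, which exports citrate to the cytosol, had 8.41, 7.86, 8.88 and 7.89 on the combination arrays. The other values were 8.67, 8.68, 9.13 and 8.82 on the AngII arrays, 8.50, 8.13, 9.25 and 8.77 on the L-NAME arrays and 8.54, 8.65, 8.89 and 9.07 on the control arrays. Of the combination arrays 3 lay below all control arrays and the other lay within their range, with a difference of -0.53 ± 0.25 (SE, adjusted p = 0.231), and of -0.40 without combination array 4 (adjusted p = 0.408). Its second probe, above background on 11 arrays, gave -0.24. Slc25a10, the dicarboxylate carrier, was above background on 5 arrays, with 7.02, 7.46, 6.67 and 7.05 in the combination group and 7.28, 6.93, 7.65 and 6.96 in control (-0.15 ± 0.20 SE, adjusted p = 0.719). All its AngII arrays were below background. With these set to background the AngII level was 1.05-fold lower than control, with measured means of 6.88 and 7.20 (adjusted p = 0.486). A ratio of this kind raises each array of the dim group to the background where it lies lower, and divides the mean of the brighter group by the result. It is no lower limit, since arrays of the brighter group below background were not raised, and none of these differences passed.

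**Figure D2:**
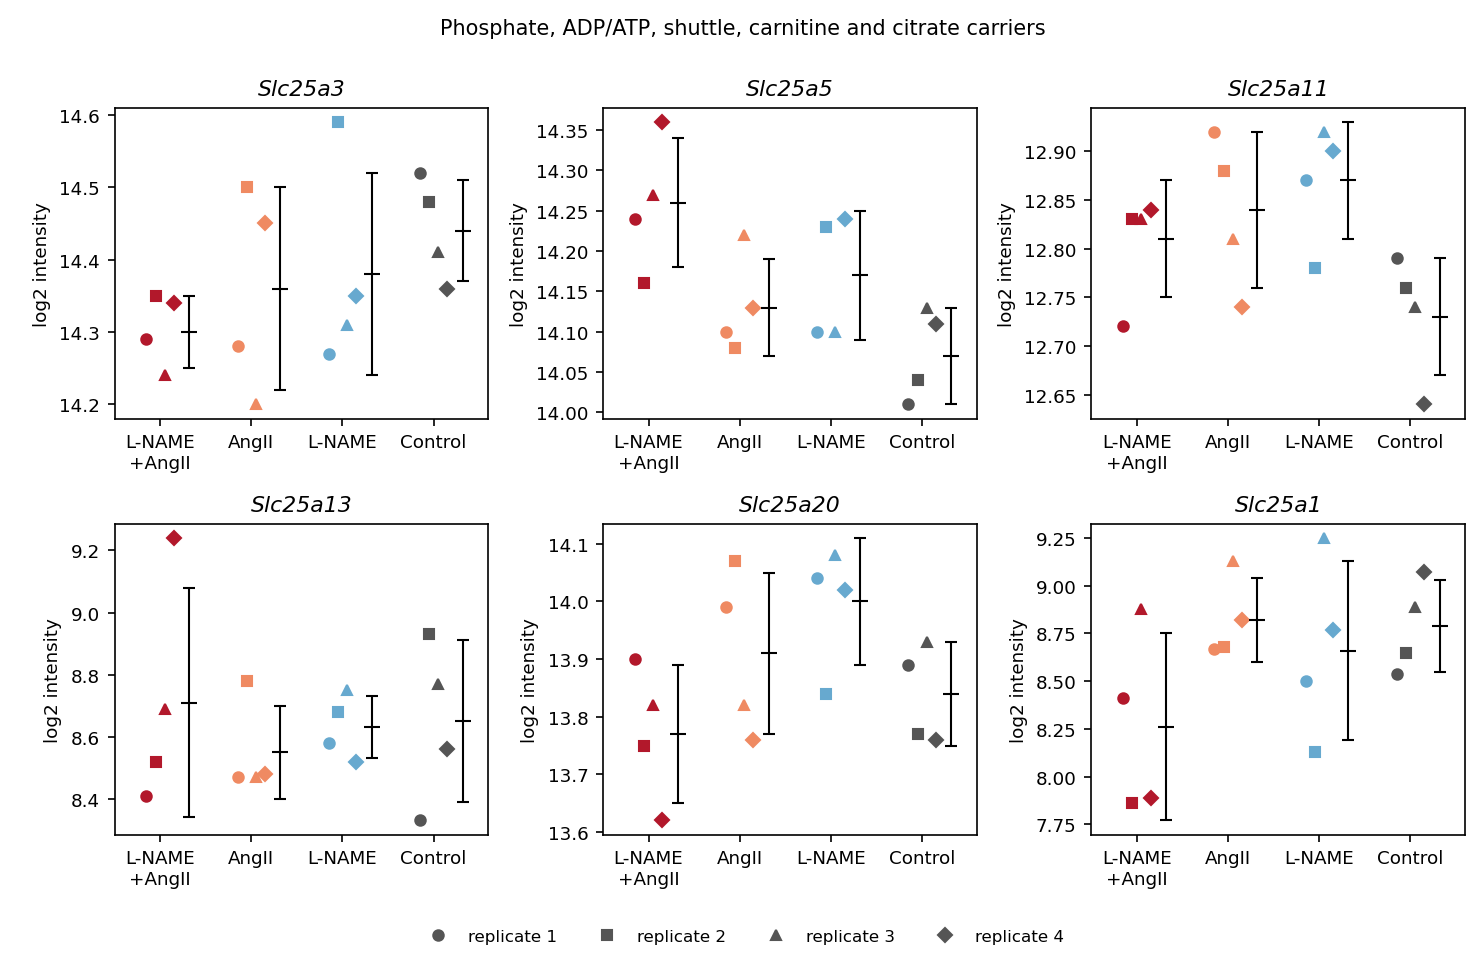
Log2 intensity of 6 carriers of the adenine nucleotide, phosphate, shuttle, carnitine and citrate exchanges on each array, by group, with the mean and SD of 4 arrays and a marker shape for each replicate number; the scales differ between panels. The combination and control points overlap for Slc25a11, Slc25a13, Slc25a20 and Slc25a1, lie apart for Slc25a3 (14.24 to 14.35, against 14.36 to 14.52) and for Slc25a5 (14.16 to 14.36, against 14.01 to 14.13).

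The tested carriers that serve ATP synthesis, Slc25a3 and Slc25a5, gave no call, and Slc25a4 was not analysed. Slc25a3, the phosphate carrier, had 14.29, 14.35, 14.24 and 14.34 on the combination arrays, 14.28, 14.50, 14.20 and 14.45 on the AngII arrays, 14.27, 14.59, 14.31 and 14.35 on the L-NAME arrays and 14.52, 14.48, 14.41 and 14.36 on the control arrays. Slc25a5, the widely expressed isoform of the ADP/ATP carrier, had 14.24, 14.16, 14.27 and 14.36 on the combination arrays, 14.10, 14.08, 14.22 and 14.13 on the AngII arrays, 14.10, 14.23, 14.10 and 14.24 on the L-NAME arrays and 14.01, 14.04, 14.13 and 14.11 on the control arrays. In both genes the combination and control arrays did not overlap, lower for the phosphate carrier and higher for the ADP/ATP carrier, and neither difference passed. The difference was -0.14 ± 0.10 for Slc25a3 (SE, 95% interval -0.35 to 0.08, adjusted p = 0.469) and 0.19 ± 0.08 for Slc25a5 (SE, 95% interval 0.01 to 0.37, adjusted p = 0.215). A second Slc25a3 probe gave -0.32 (adjusted p = 0.175 with every probe tested). Both main probes were near the top of the scale, where the highest value of any probe was 15.02, and whether bright probes were compressed there was not tested.

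The ATP-Mg/phosphate carriers, which answer to calcium and adjust the adenine nucleotide pool of the matrix, gave no call. Slc25a25 had 7.97, 8.11, 8.43 and 7.10 on the combination arrays, 8.45, 7.77, 9.03 and 8.19 on the AngII arrays, 8.34, 8.45, 7.92 and 8.02 on the L-NAME arrays and 7.90, 7.47, 7.62 and 8.45 on the control arrays. All groups overlapped, and the differences from control were 0.04 for the combination (0.31 without combination array 4, its lowest value, adjusted p = 0.585), 0.50 for AngII (adjusted p = 0.476) and 0.32 for L-NAME (adjusted p = 0.768). Slc25a24 differed from control by -0.15 in the combination group (-0.30 without combination array 4, adjusted p = 0.623) and by -0.44 with AngII (adjusted p = 0.51). A second Slc25a24 probe, above background on 14 arrays, gave 0.03 for the combination and 0.01 for AngII against control.

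Slc25a20, the carnitine-acylcarnitine exchanger that brings activated fatty acids into the matrix, had 13.90, 13.75, 13.82 and 13.62 on the combination arrays. The values were 13.99, 14.07, 13.82 and 13.76 on the AngII arrays, 14.04, 13.84, 14.08 and 14.02 on the L-NAME arrays and 13.89, 13.77, 13.93 and 13.76 on the control arrays. All groups overlapped, and the combination differed from control by -0.06 ± 0.10 (SE, 95% interval -0.28 to 0.15, adjusted p = 0.773) and from the L-NAME group by -0.22 (adjusted p = 0.287). A second, dimmer Slc25a20 probe, above background on all 16 arrays, gave 0.16 from control, the other direction, and -0.04 from L-NAME. Slc25a29, its relative that carries basic amino acids, was above background on 5 arrays. It had 7.06, 7.17, 7.10 and 6.46 on the combination arrays and 6.87, 6.71, 7.12 and 6.14 on the control arrays, all 4 control values below background (0.24 ± 0.27 SE, adjusted p = 0.66). Without combination array 4 its difference was 0.40 (adjusted p = 0.443). With the control arrays set to background it was 1.04-fold higher with AngII, with measured means of 7.19 and 6.71 (adjusted p = 0.443).

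Among the amino acid carriers 3 of the 5 with a probe were tested, and 0 of the 3 were called. Slc25a15, the ornithine carrier of the urea cycle, averaged 8.97 ± 0.04 in the combination group and 9.14 ± 0.11 in control (SD, n = 4 each), with no overlap (-0.18 ± 0.18 SE, adjusted p = 0.636). Its second probe, above background on all 16 arrays, gave 0.25, the other direction (adjusted p = 0.563 with every probe tested). Slc25a38, which brings glycine into the matrix for haem synthesis, differed by -0.18 ± 0.12 (SE, adjusted p = 0.446), and by -0.30 without combination array 4 (adjusted p = 0.0955), where it had its highest value. Slc25a44, a carrier of branched-chain amino acids, had 7.09, 7.28, 7.31 and 8.40 on the combination arrays and 6.74, 7.29, 7.26 and 7.95 on the control arrays. Its difference of 0.21 ± 0.30 (SE, adjusted p = 0.75) was -0.09 without combination array 4. Slc25a28, mitoferrin 2, which imports iron, had 12.31, 12.35, 12.30 and 12.21 on the combination arrays and 12.32, 12.28, 12.46 and 12.63 on the control arrays (-0.13 ± 0.10 SE, 95% interval -0.34 to 0.07, adjusted p = 0.464).

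The carriers most like the uncoupling proteins in sequence gave no call. Slc25a27 had 6.34, 6.63, 6.27 and 6.47 on the combination arrays, 7.10, 7.26, 6.62 and 6.71 on the AngII arrays, 7.46, 8.02, 6.65 and 6.48 on the L-NAME arrays and 6.75, 7.79, 6.90 and 7.21 on the control arrays. The combination arrays were all below background and below all control arrays, and 2 of the 4 control arrays were above background. Its -0.73 ± 0.30 (SE, adjusted p = 0.167) was the lowest value in the family but did not pass. With the combination arrays set to background the level was 1.02-fold lower.

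Slc25a14 had 8.19, 8.12, 8.07 and 8.06 on the AngII arrays and 7.78, 7.77, 7.56 and 7.33 on the control arrays. The AngII arrays lay above all control arrays and above all combination arrays, which had 8.01, 7.96, 7.49 and 7.34. The difference was 0.50 ± 0.17 for AngII against control (SE, adjusted p = 0.196) and -0.41 ± 0.17 for the combination against AngII (SE, adjusted p = 0.265). With the replicate block, the test over all 4 groups called it (adjusted p = 0.0376). Slc25a30 had 8.40, 8.76, 7.80 and 7.50 on the combination arrays and 8.46, 8.37, 7.75 and 7.86 on the control arrays, a difference of 0.01 ± 0.29 (SE, adjusted p = 0.994), and of 0.21 without combination array 4 (adjusted p = 0.746). In both groups its replicates 1 and 2 exceeded replicates 3 and 4.

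Slc25a34, an orphan carrier with no established substrate, had 11.20, 11.06, 11.23 and 10.19 on the combination arrays. It had 11.27, 11.54, 11.77 and 11.56 on the AngII arrays, 11.36, 11.54, 11.69 and 11.45 on the L-NAME arrays and 11.52, 11.33, 11.69 and 11.26 on the control arrays. The combination arrays lay below the other 12, with array 4 lowest of all. None of the differences passed: -0.53 ± 0.20 from control (adjusted p = 0.127), -0.62 from AngII (adjusted p = 0.154) and -0.59 from L-NAME (adjusted p = 0.143). Without combination array 4 the differences were -0.29 ± 0.14 from control (SE, adjusted p = 0.233), -0.38 from AngII (adjusted p = 0.209) and -0.35 from L-NAME (adjusted p = 0.242). A second, dimmer probe gave -0.42 from control, -0.39 from AngII and -0.56 from L-NAME.

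Slc25a46, an outer membrane member with a part in mitochondrial shape, had 8.31, 8.33, 8.04 and 9.04 on the combination arrays and 8.01, 8.43, 8.27 and 8.37 on the control arrays. They overlapped apart from combination array 4, the highest of 16 (0.16 ± 0.18 SE, adjusted p = 0.668), and the difference was -0.04 without it (adjusted p = 0.911). Slc25a35, another orphan, had 7.51, 7.38, 8.24 and 7.84 on the AngII arrays and 7.07, 6.77, 7.51 and 7.48 on the control arrays, a difference of 0.53 ± 0.21 (SE, adjusted p = 0.26) with overlapping groups. The orphans Slc25a45 and Slc25a47 differed from control by 0.05 and -0.03 in the combination group and did not pass. Without combination array 4 the values were 0.22 (adjusted p = 0.737) and -0.39 (adjusted p = 0.222). The remarks on Slc25a14 to Slc25a17, Slc25a24, Slc25a32, Slc25a35, Slc25a36, Slc25a38, Slc25a39, Slc25a45 and Slc25a47 lie outside the naming rule and were chosen after their values were seen.

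**Figure D3:**
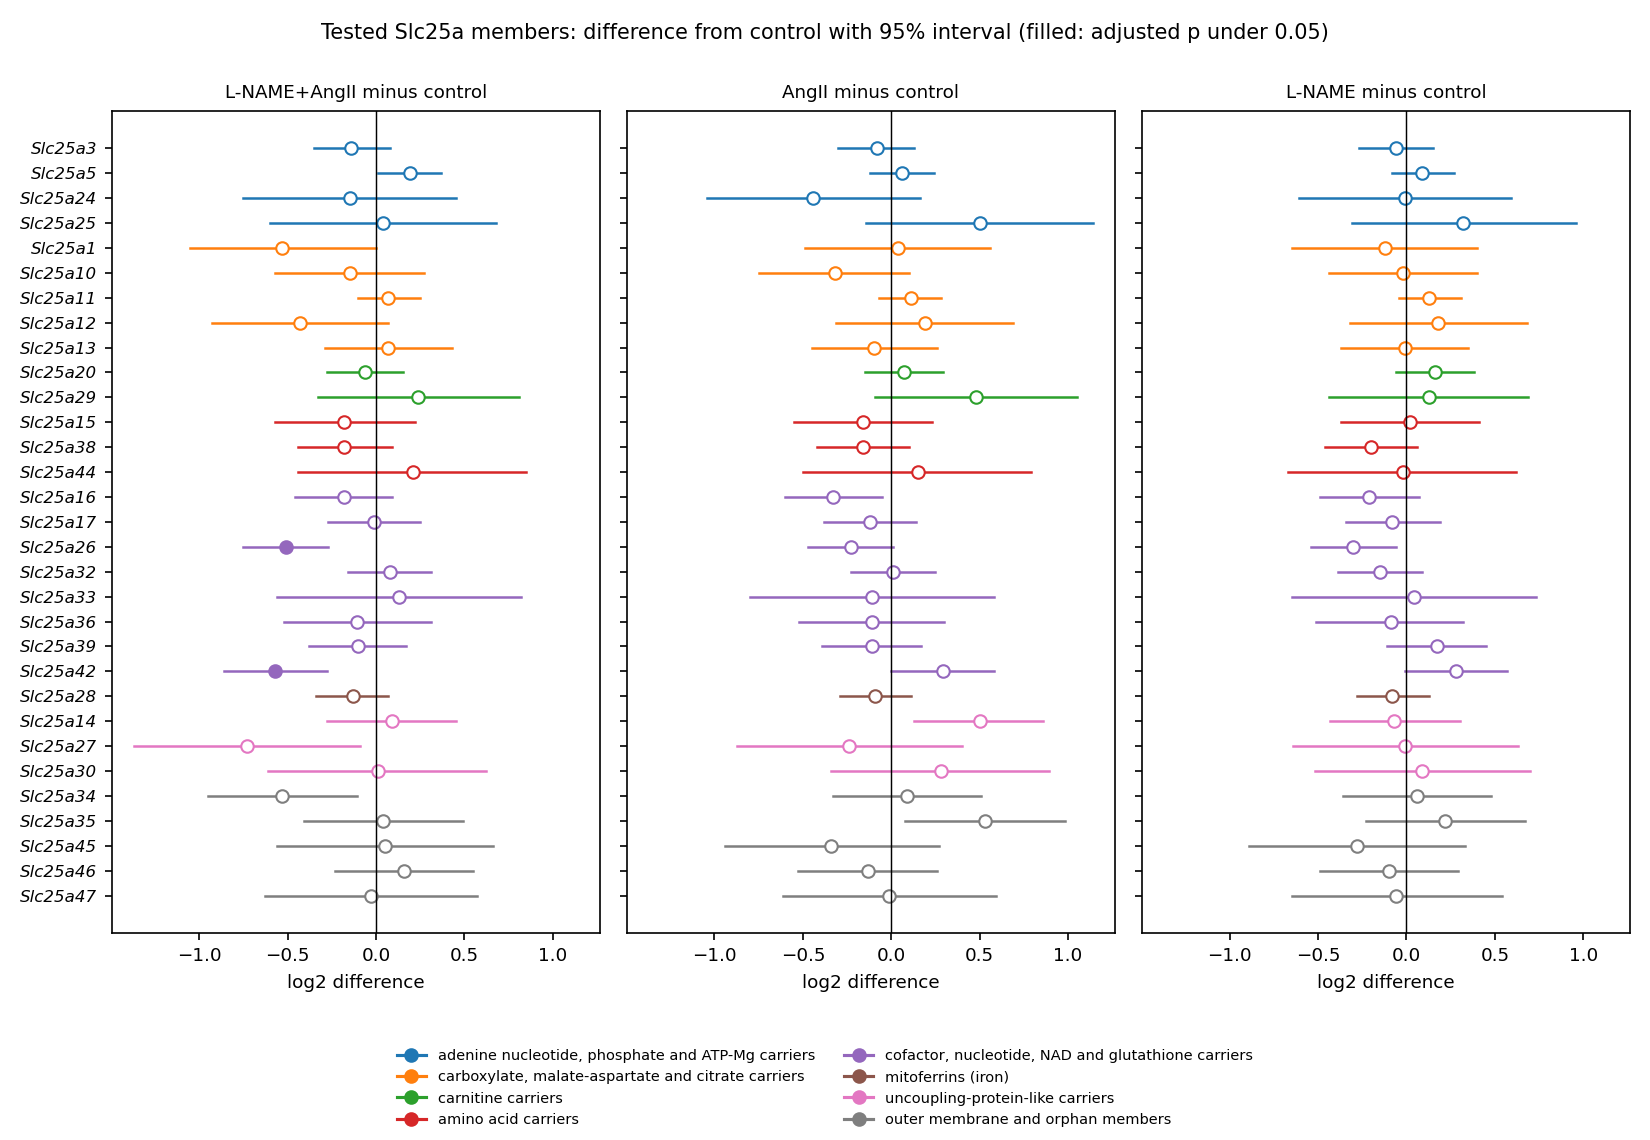
Log2 difference from control of the 31 tested members, as points with 95% intervals, for the combination, AngII and L-NAME, coloured by role; filled points have an adjusted p under 0.05. The 2 filled points are Slc25a42 at -0.57 and Slc25a26 at -0.51 in the combination, and most intervals in all 3 panels span 0.

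The medians over the members stayed within 0.1 of those of all genes in every comparison. For AngII against control the median was -0.08 over members and 0.01 over all genes, with 17 of 31 members below 0 (54.8%, against 49.1% of all genes). For L-NAME against control it was -0.01 and 0.01, with 18 members below 0 (58.1%, against 47.7% of all genes). Against AngII the combination had a median of -0.02 over members and -0.01 over all genes, with 18 members below 0 (against 51.5% of all genes), and against L-NAME of -0.06 and -0.01, again with 18 below 0 (against 52.0% of all genes). For the combined effect beyond the sum of both agents the median was 0.02 over members and -0.01 over all genes, with 14 members below 0 (45.2%, against 51.7% of all genes) and 4 at an unadjusted p under 0.05 (12.9%, against 16.4% of all genes).

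AngII and control did not overlap in 4 members (11.4% of all genes), Slc25a14 higher (5.59% of all genes) and Slc25a10, Slc25a16 and Slc25a26 lower (5.80% of all genes). L-NAME and control did not overlap in 3 (10.1% of all genes), Slc25a26, Slc25a32 and Slc25a38, all lower (4.90% of all genes, with 5.17% higher). The combination did not overlap AngII in 3 (7.73% of all genes), Slc25a14, Slc25a34 and Slc25a42, all lower (4.32% of all genes, with 3.40% higher). It did not overlap L-NAME in 3 (10.3% of all genes), Slc25a12, Slc25a34 and Slc25a42, all lower (5.96% of all genes, with 4.36% higher). Against control the 7 members stood beside 12.6% of all genes: Slc25a5 higher, and Slc25a3, Slc25a15, Slc25a26, Slc25a27, Slc25a34 and Slc25a42 lower.

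Members differed in how far arrays of a group were spread. The pooled SD over the 4 groups ranged from 0.07, in Slc25a5 and Slc25a11, to 0.50 in Slc25a33, with a median of 0.27 in members and 0.26 in all genes tested. Combination array 4 held the highest or the lowest of the 16 values in 14 of 31 tested members (45.2%), 7 high and 7 low, beside 41.5% of all genes. Among the high ones were Slc25a33, Slc25a44, Slc25a46 and Slc25a13, and among the low ones Slc25a34, Slc25a12, Slc25a25 and Slc25a20. On that array Slc25a42 was within its group there, and Slc25a26 had its lowest value of all 16 there.

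**Figure D4:**
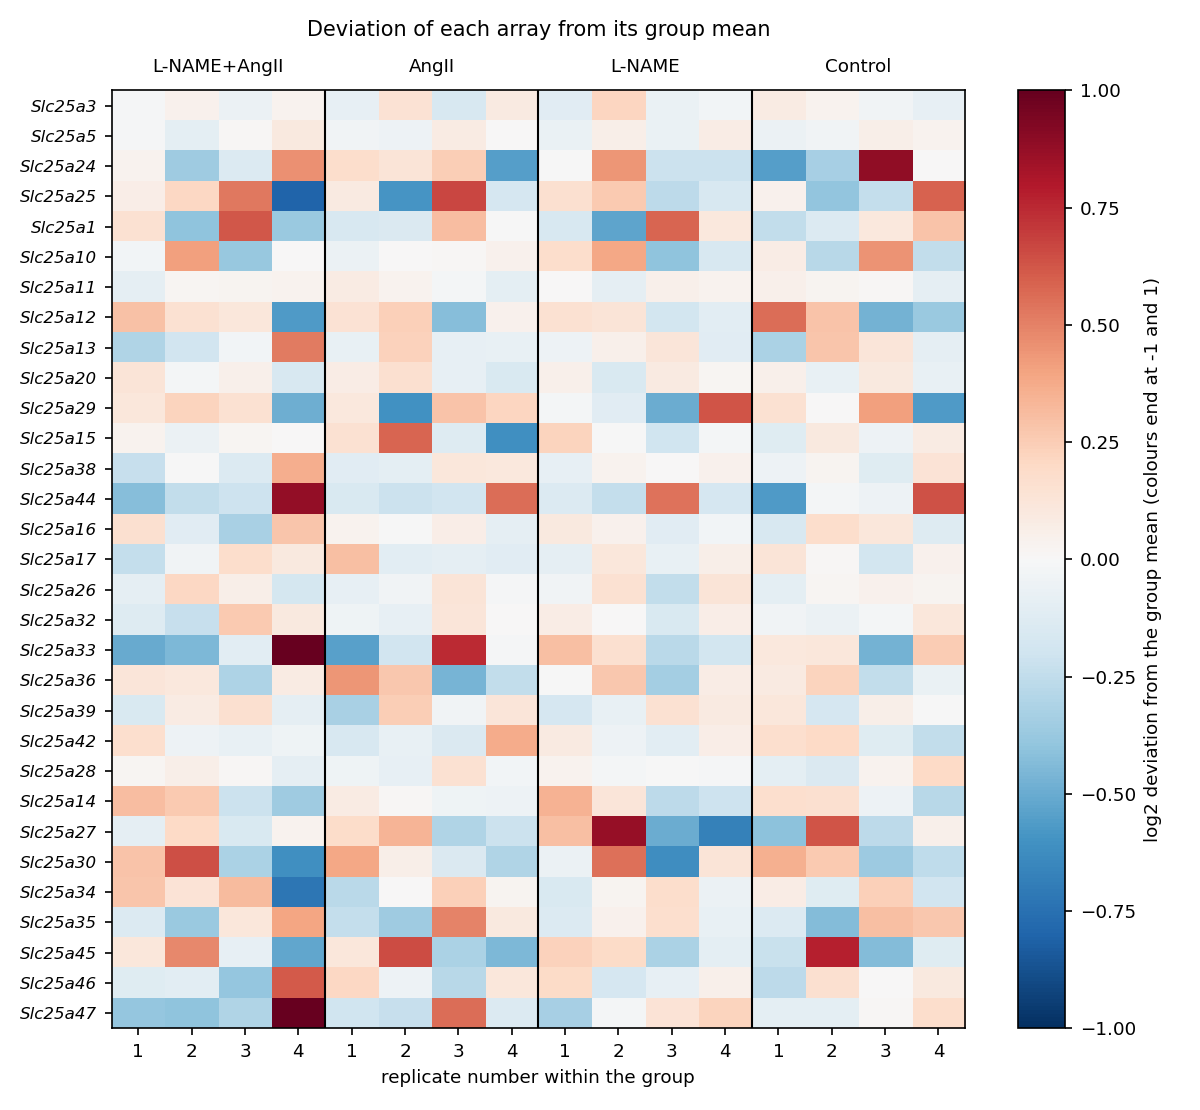
Deviation of each array from its group mean on the log2 scale for the 31 tested members (rows, ordered by role) and 16 arrays (columns, by group and replicate number); colours end at -1 and 1. The column of combination array 4 holds the strongest colours in both directions, while the rows of Slc25a3, Slc25a5 and Slc25a11 stay pale throughout.

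The 8 members not tested were dim in left ventricle on these probes. Slc25a21, Slc25a22, Slc25a31, Slc25a41, Slc25a48 and Slc25a53 were not above background on any array. Slc25a22, a glutamate carrier, had 6.25 to 6.99 in the combination group and 5.86 to 6.42 in control, and Slc25a31, the testis isoform of the ADP/ATP carrier, had 5.80 to 6.14 over all arrays. Slc25a40 was above background on 2 arrays. Slc25a18, another glutamate carrier, had 6.47, 6.64, 7.73 and 9.20 on the combination arrays and 6.77, 6.20, 6.29 and 6.90 on the control arrays. It exceeded background on combination arrays 3 and 4 and on no other array, and no test was made.

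Genes that work beside these carriers were read from 4 lists. Family members with other symbols had 3 tested, with a median of 0.08 in the combination against control and 0 called, beside 5.80% of all genes called. Ucp3, the uncoupling protein of muscle, had 9.41, 9.82, 9.35 and 5.86 on the combination arrays, 9.92, 10.19, 9.81 and 10.11 on the AngII arrays, 10.35, 10.55, 10.14 and 10.07 on the L-NAME arrays and 10.52, 10.46, 10.70 and 10.13 on the control arrays. All combination arrays lay below all control arrays, and array 4 was below background. The difference from control was -1.84 ± 0.60 (SE, adjusted p = 0.0822), and without that array it was -0.93 ± 0.17 (SE, adjusted p = 0.00444), so the call rested on which arrays entered. From AngII the difference was -1.40 (adjusted p = 0.276), and -0.48 without that array (adjusted p = 0.19). From L-NAME it was -1.67 (adjusted p = 0.171), and -0.75 without that array (adjusted p = 0.0277). Mtch2, a carrier-like insertase of the outer membrane, differed by 0.08 ± 0.10 (SE, adjusted p = 0.722), and Ucp1, the uncoupling protein of brown fat, did not pass the background filter.

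Other mitochondrial pores and carriers had 13 tested, a median of -0.03 in the combination against control and 0 called. Tspo, a cholesterol-binding protein of the outer membrane, was higher in the combination than in the L-NAME group (0.55 ± 0.13 SE, adjusted p = 0.0394, and 0.0459 without combination array 4). It was the 1 call in any of the 4 lists and 6 comparisons, beside 1.89% of all genes called against L-NAME. The enzymes served by the carriers had 17 tested, a median of -0.09 and 0 called, with 13 of the 17 below 0 (50.8% of all genes). The machinery that imports carrier proteins had 11 tested, a median of -0.05 and 0 called, with 10 of the 11 below 0. From control, 8 lay below 0 with AngII (49.1% of all genes) and 8 with L-NAME (47.7%). In the combination, 6 lay below 0 against AngII (51.5% of all genes) and 3 against L-NAME (52.0%).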

How the data were processed

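RNA from 16 left ventricle samples was profiled on Illumina BeadChips. Trizol and RNeasy columns gave total RNA, which was turned into biotin-labelled cRNA, per the labels' protocols. The submitters' processing notes name GenomeStudio and lumi, with neither a version nor a genome build. The values are the log2 intensities deposited by the authors for 25697 probes. Their sorted columns differed by at most 0.00132, as after quantile normalisation, and no source states the transform and background step behind the log2 scale, which bear most on dim genes. A further deposited file has 64 per-sample columns that match no label, and it was not used.

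Symbols came from the platform annotation (23978 probes with 1 symbol, 0 with several, 1719 with none). Background was the 95th percentile of 1361 chemosensory receptor probes. Each gene was read from its highest-mean probe, which had to exceed background on 4 arrays. limma 3.58.1 in R 4.3.3 fitted a mean for each of 4 groups to all 16 arrays, with eBayes (residual degrees of freedom 12, prior 3.15), and gave 6 contrasts and an F test, adjusted by Benjamini-Hochberg over 9110 genes at 0.05. The fit was tested on simulated data with independent noise on each array. These held neither the correlation of same-numbered arrays nor an array that stood apart. With 4 arrays a group, their number limits the precision.

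Replicate numbers are the same in all groups. Deviations from the group means correlated above 0.1 in all 24 same-numbered pairs (r 0.115 to 0.451, median 0.281), so a fit with this number as a block stands beside each call that it changes. Other pairs within replicates 1 and 2 or within 3 and 4 had a median r of 0.234, and pairs across these sets -0.258. The members and lists were chosen with earlier results of these data known. The text names members called, the 5 highest and 5 lowest differences of the combination from control, 15 carriers whatever their value, and dim members. The alternatives were other filters, every probe, array weights, a trended robust variance, the replicate block, cyclic loess, median centring, an atrial covariate, the 2 sets as a block, each array left out, and fits of 8 arrays.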

Additional observations from a re-analysis of the deposited data

Results flagged for a closer look

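Within groups of 4 arrays, 9 values stood apart from the other 3 by Dixon's criterion (gap over range). The 76 groups screened were those of the 19 named members tested. A rate of 1 in 20 groups would flag 3.8 of these 76. Some members were named for their values, so that rate is no yardstick for this set. For Slc25a42 the value of 9.10 on combination array 1 stood above 8.85 to 8.89, and the 10.16 on AngII array 4 stood above 9.63 to 9.72. For Slc25a26 the 11.23 on control array 1 stood below 11.35 to 11.37. Combination array 4 gave 6.46 for Slc25a29, below 7.06 to 7.17, and 8.40 for Slc25a44, above 7.09 to 7.31. Slc25a44 also had 8.02 on AngII array 4, above 7.24 to 7.30, and 7.83 on L-NAME array 3, above 7.05 to 7.16. For Slc25a11 the 12.72 on combination array 1 lay below 12.83 to 12.84, and for Slc25a13 the 8.78 on AngII array 2 lay above 8.47 to 8.48.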

How the results depend on the processing

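Over the 31 tested members, 2 were called in the combination against control, and 1 with the atrial covariate (Slc25a26), 0 in a fit of only the 8 arrays compared, 3 with array weights (Slc25a38 at -0.31, adjusted p = 0.0414, was the addition) and 1 to 2 without single arrays. Against AngII the 1 call became 0 with the atrial covariate and 0 with 8 arrays, and against L-NAME it became 2 with the 2 sets of replicates as a block (Slc25a12, -0.61). The combined effect beyond the sum of both agents gave 0 calls. It gave 1, Slc25a42, in members above background on all 16 arrays, with a trended robust variance, array weights, the replicate block, median centring or the 2 sets as a block, and 0 to 1 without single arrays. The F test gave 1 call, but 2 with the filter on all 16 arrays, the trended robust variance or array weights (Slc25a26 added), 2 with the replicate block or the 2 sets (Slc25a14 added), and 0 with the atrial covariate. AngII and L-NAME against control gave 0 members in every alternative. Calls over all genes, 528 for the combination against control, were 1113 with array weights, 835 with the 2 sets as a block and 82 with 8 arrays. The replicate block gave 788 for that comparison, 172 rather than 67 against AngII, 262 rather than 172 against L-NAME, 56 rather than 0 for AngII against control, 42 rather than 0 for the combined effect and 410 rather than 218 by the F test. It changed 1 call of a named member, the combined effect for Slc25a42, and the F test also called Slc25a14. Without single arrays, calls over all genes ran over 248 (without control array 1) to 581 (without combination array 4) for the combination against control, 20 (without AngII array 2) to 119 (without combination array 4) against AngII, and 82 (without L-NAME array 4) to 216 (without combination array 4) against L-NAME. For the 19 named members tested, 3123 of 3143 alternative values kept their side of the threshold, 9 lost a call, 11 gained one and 0 called values changed sign, while 103 uncalled values did. Over the alternatives Slc25a26 differed from control by -0.58 to -0.45 (adjusted p 0.00475 to 0.0916) and Slc25a42 by -0.65 to -0.50 (adjusted p 0.00673 to 0.0945). Levels near background limit Slc25a10, Slc25a27 and Slc25a29, each above it on 5 arrays.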
